A study of Mus musculus with 44 samples.

Results

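The cochlear nucleus of the mouse was compared between postnatal day 21 (P21) and postnatal day 7 (P7), using control nuclei only. The series holds 44 arrays of total RNA from mice in which 1 cochlea was removed at P7 or at P21. The 22 arrays whose titles name them as control were taken, 11 of each age, and each comes from the nucleus on the side opposite to the removed cochlea. Per age there were 2 control arrays at 6 h after surgery and 3 each at 12, 24 and 48 h. All control animals had therefore been operated on, none came from an unoperated mouse, and the age names the day of surgery, so that the tissue was 6 to 48 h older. Each array was a separate pool of nuclei according to the series design. The number of animals in a pool, the strain and the sex are not given in the sources used here. The ages were compared within each time, and the 4 differences were averaged.

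The cochlear nucleus is the first brainstem station of hearing. Its ventral division relays the timing of auditory nerve spikes through large calyx-like synapses onto bushy cells, while the dorsal division adds granule cells and cartwheel cells, which share many genes with the granule and Purkinje cells of the cerebellum. In mice the ear canals open and hearing begins between the ages compared here. Over this interval axons in the brainstem become myelinated and many precursor cells stop dividing. Neurons acquire the potassium channels, calcium-binding proteins and inhibitory receptors that mark fast auditory signalling.

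Expression was read on 22626 probe sets per array, each a set of short oligonucleotides for 1 transcript or gene, on a log2 scale. Of these, 14988 were kept because they exceeded log2 5, taken as the limit of background, in at least 2 of the 22 arrays, and they reported 8718 genes. Where several probe sets report a gene, the brightest on average stands for it. A change is the log2 level at P21 minus that at P7, averaged over the 4 times, and was called at an adjusted p under 0.05 in limma's moderated test. For genes described below in which the mean or most arrays of the dimmer age, but not all, were below log2 5, the fold is given with the mean of each age and time raised to at least log2 5, called a floored fold, with the number of its 11 arrays below background. Array medians lay between 5.963 and 6.141, and 59.3% to 61.82% of the probe sets of an array were above log2 5. The brightest value of an array was between 14.44 and 14.99. RNA came from whole nuclei, so a lower level can mean fewer cells of a type or less RNA per cell, which cannot be told apart.

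The first principal component carried 48.9% of the variance and separated the ages without overlap. The first and second P7 arrays of 48 h lay nearest to the P21 arrays, with scores of -20.2 and -17.7, against -49.9 to -29.4 for the other P7 arrays and 31.8 to 45.8 for P21. The second component carried 16.3% and set 4 arrays of each age apart from the other 14. These were both 6 h arrays and replicate 3 of 12 and of 48 h, in both ages alike. The correlation of arrays was 0.9669 to 0.9962 within an age and 0.9515 to 0.9859 between ages. Without the 8 arrays that stand apart, 2813 probe sets were called higher and 3705 lower at P21, against 3337 and 4291 with them.

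**Figure D1:**
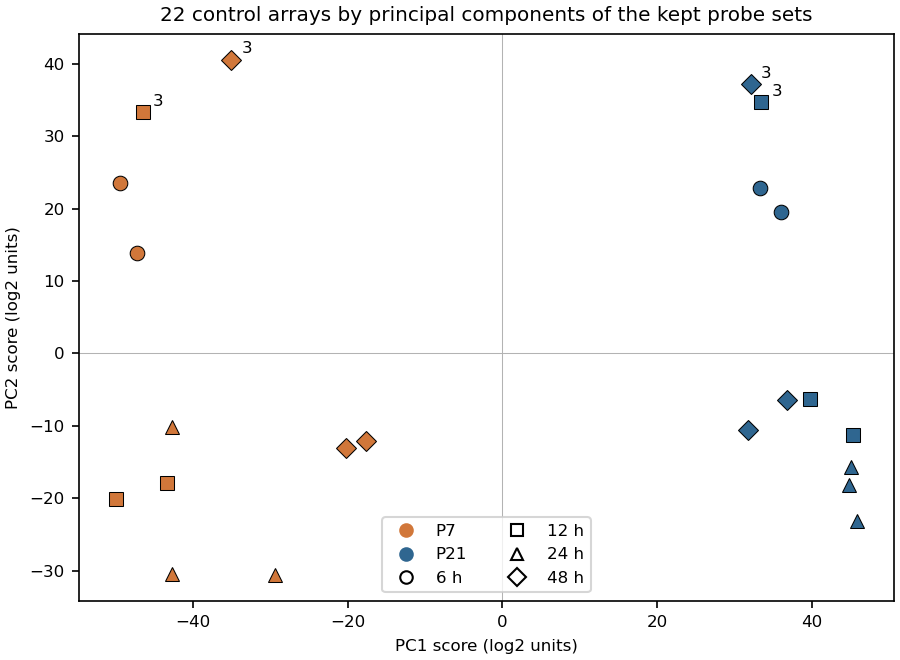
Scores of the 22 control arrays on the first (x axis) and second (y axis) principal component of the kept probe sets, coloured by age and shaped by time after surgery, with replicate 3 of 12 and of 48 h marked 3. P7 arrays lie left of 0 (-49.9 to -17.7) and P21 arrays right of it (31.8 to 45.8), and the 6 h arrays and marked arrays lie above 0 in both ages.

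The age difference was wide. At P21, 3337 probe sets (22.3%) were called higher and 4291 (28.6%) lower, and 650 (4.34%) and 741 (4.94%) of them were also changed at least 2-fold. By gene, 1966 (22.6%) were higher and 2689 (30.8%) lower, of which 403 (4.62%) and 457 (5.24%) at least 2-fold. In 482 genes (5.53%) every P21 array lay above every P7 array, and in 577 (6.62%) every P21 array lay below. These shares are the background for each count of list members below. The lists were chosen with earlier results of these data known, so the shares are a reference and not a test. Of the 4655 called genes, 4306 kept the same sign at all 4 times. The median change over all measured genes was -0.04.

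The largest changes were ranked by the floored fold. The 15 largest falls included genes known from young neurons (Dcx, Gap43), dividing cells (Rrm2) and the matrix of the growing brain (Tnc). The microtubule protein gene Dcx, a marker of newborn and migrating neurons, had lowest, median and highest log2 values of 7.89, 9.24 and 9.69 in the P7 arrays and of 3.14, 3.82 and 4.68 in the P21 arrays. Every P7 array was far above every P21 array, and all P21 arrays were below background. Its level was thus at least 17.5-fold lower at P21 (adjusted p = 3.55e-14). Gap43, which encodes a protein of growing axon tips, went from 8.06, 9.43 and 10.04 to 4.38, 5.25 and 6.51 and fell 15.5-fold (log2 change -3.95, SE 0.22, adjusted p = 1.44e-11). The sodium pump regulator Fxyd7 fell by a floored 14.4-fold, with 9 P21 arrays below background, and its relative Fxyd6 14.5-fold. The apelin receptor Aplnr fell by a floored 14.3-fold (6 P21 arrays below background), the tubulin Tubb2b 8.93-fold, and the collapsin response mediator Dpysl3 7.1-fold. Other genes among the 15 largest falls were D430019H16Rik (11.4-fold), Ly6h (10.7-fold) and the transcription factor Sox4 (7.03-fold). Nt5dc2, below background in all P21 arrays, was at least 7.32-fold lower. In each of the 15 genes no P21 array reached a P7 array.

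The 15 largest rises included genes known from myelin (Hapln2, Klk6), from cartwheel and Purkinje cells (Calb1, Car8) and from astrocytes (Dao). Dao, the D-amino acid oxidase that astrocytes of the hindbrain use to degrade D-serine, was at 2.83, 3.6 and 4.07 in the P7 arrays, all below background, and at 8.03, 9.4 and 10.26 in the P21 arrays. Every P21 array was far above every P7 array, and Dao was at least 18.6-fold higher at P21 (adjusted p = 4.86e-13). The G protein subunit gene Gng13 went from 4.15, 5.01 and 5.36 to 8.65, 9.14 and 10.01, a floored 18.6-fold with 5 P7 arrays below background (log2 change 4.41, SE 0.11, adjusted p = 2.81e-16). Its P7 arrays were all near background and its P21 arrays were all well above it. The serine protease Klk6, made by oligodendrocytes, rose 15.7-fold, and Hsd11b1, which regenerates active glucocorticoid, 13.9-fold. Anln, Ppp1r14a and Evi2a, all known from myelinating oligodendrocytes, rose 12.8-fold, 9.57-fold and 8.96-fold. The retinaldehyde dehydrogenase Aldh1a1 rose 7.85-fold, the adenylosuccinate synthase Adssl1 7.96-fold and the respiratory subunit Cox8b 8.68-fold. Septin8 rose 7.25-fold on its brighter probe set and changed by -0.80 on its dimmer one, also called, so no direction is given for the gene.

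Genes of neuronal growth were lower at P21 almost as a whole. In the list of immature neurons and axon growth, with 30 of 32 genes measured, 26 were called lower and 2 higher, and the median change was -1.29. With values below background set to log2 5, that median was -1.08. In 19 genes the P21 arrays all lay below the P7 arrays. Nnat, an imprinted proteolipid of developing brain, was at 12.68, 13.49 and 14.06 at P7 and 10.11, 11.26 and 12.2 at P21, 4.3-fold lower (adjusted p = 2.47e-09). Sox11, a transcription factor of differentiating neurons, had values of 4.47, 5.61 and 6.52 at P7 and 3.36, 3.95 and 4.74 at P21. Its P21 arrays were all below background and the ages overlapped, giving a level at least 1.47-fold lower (adjusted p = 1.08e-06). The 2 members that rose were Cd24a, a small surface glycoprotein (2.25-fold), and the semaphorin receptor Nrp2 (1.38-fold), whose call was lost without the 6 h arrays (adjusted p = 0.053).

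**Figure D2:**
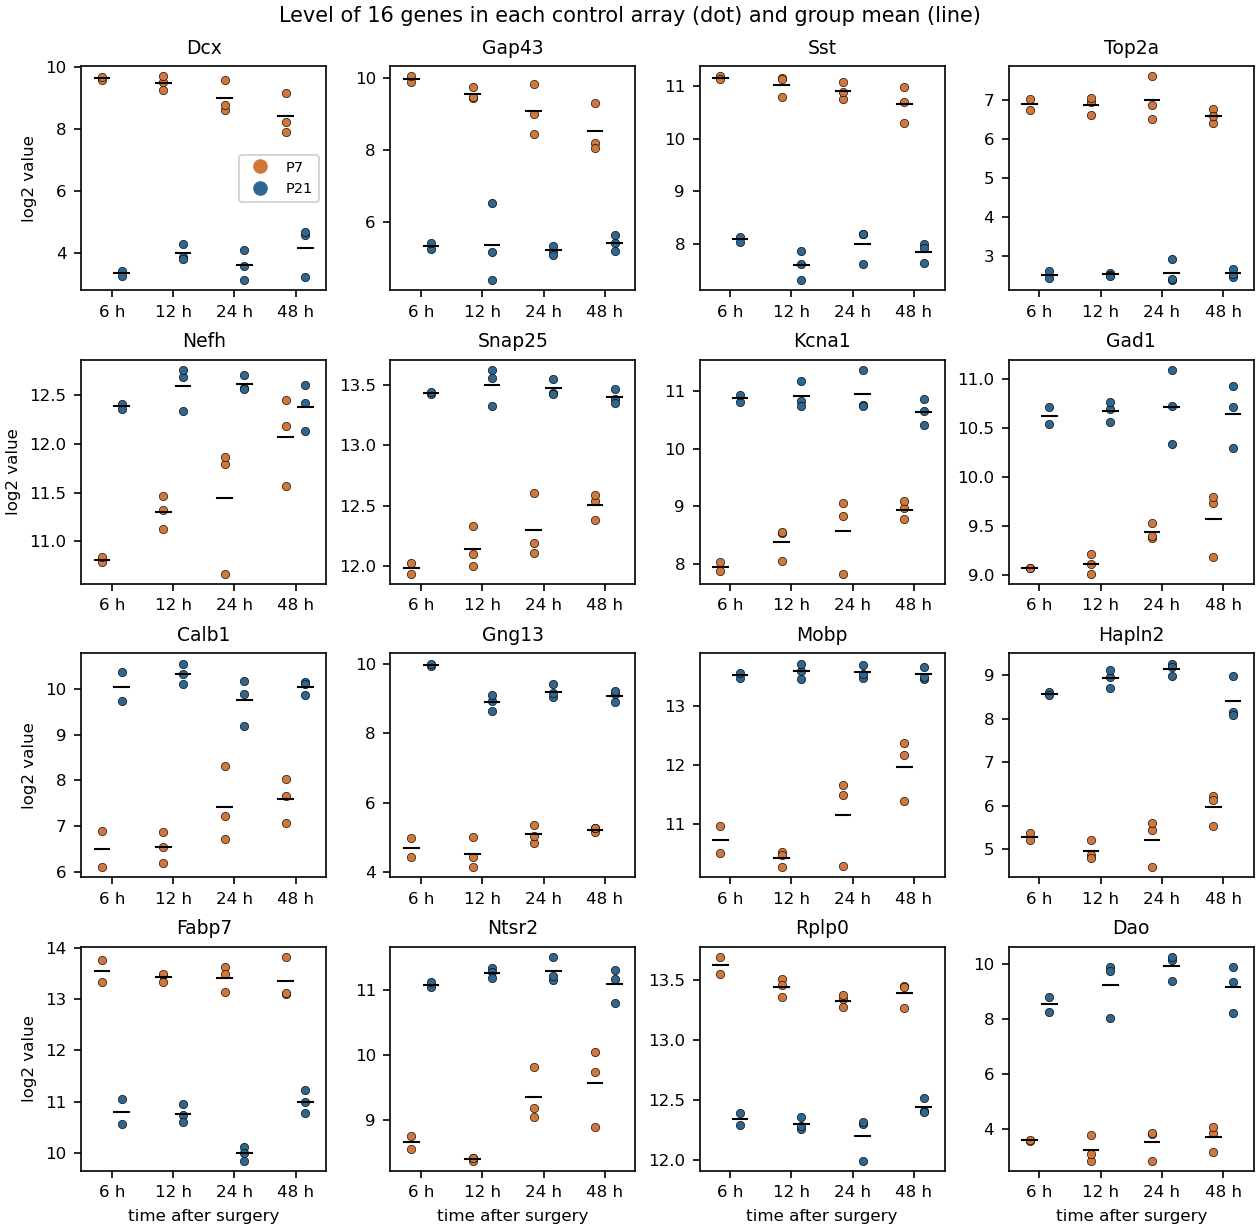
Log2 value (y axis) of 16 genes in each control array (dots) at each time after surgery (x axis), with P7 left in orange, P21 right in blue and black lines for group means. The y axes differ between panels and do not start at 0. Dcx, Gap43, Sst, Top2a, Fabp7 and Rplp0 are lower at P21 and the other 10 higher. In Nefh alone the ages overlap, where P7 reaches 12.45.

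Genes of mature neurons changed in both directions. Of 18 measured members 7 rose (38.9%, against 22.6% of all genes) and 2 fell (11.1%, against 30.8%), with a median change of 0.17. The heavy neurofilament gene Nefh went from 10.67, 11.47 and 12.45 to 12.13, 12.57 and 12.76, 2.13-fold higher (SE 0.13, adjusted p = 8.67e-07). The ages overlapped in this gene: its P7 means went from 10.81 at 6 h to 12.07 at 48 h, while the P21 means stayed within 12.39 to 12.62. The light chain Nefl was at 12.99, 13.14 and 13.45 at P7 and 12.93, 13.26 and 13.5 at P21, and its change of 0.046 (SE 0.064) did not pass the test (adjusted p = 0.58). The neuronal enolase Eno2 rose 2.57-fold, the vesicle protein Nrsn1 3.3-fold and the surface protein Thy1 1.95-fold. Rtn1, a reticulon of the endoplasmic reticulum, fell 2.08-fold, and the microtubule protein Mapt fell 1.92-fold.

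Genes of transmitter release were more often higher than lower at P21. Among 29 measured genes of synaptic vesicles and release, 14 rose and 3 fell, with a median of 0.44. Snap25, a membrane-fusion SNARE protein, was at 11.94, 12.19 and 12.61 at P7 and 13.33, 13.44 and 13.63 at P21, 2.34-fold higher (SE 0.066, adjusted p = 1.1e-11). No P21 array was as low as any P7 array. Vamp1 and Syt2, the vesicle SNARE and the calcium sensor that fast hindbrain synapses use, rose 3.18-fold and 2.97-fold, and on the dimmest of its 3 probe sets Syt2 changed by 0.51 (adjusted p = 0.0708). The fusion ATPase Nsf rose 2.22-fold. Against this direction, the SNARE gene Stx1a fell from 7.33, 7.87 and 8.45 to 4.25, 5.52 and 5.97, 6.02-fold (adjusted p = 5.56e-10), and its 2 probe sets were both called lower. The priming factor Unc13b fell 1.72-fold. Doc2b was at or near background in both ages.

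Glutamate receptor and transport genes changed in both directions, in shares near those of all genes. Of 17 measured among 41 listed, 5 rose (29.4%, against 22.6% of all genes) and 4 fell (23.5%, against 30.8%; median 0.1). The NMDA receptor subunit Grin2c, typical of mature granule cells, went from 4.19, 5.55 and 6.47 to 7.31, 8.12 and 8.76, 6.23-fold higher (SE 0.24, adjusted p = 1.52e-08). The ages did not overlap. The AMPA receptor subunits Gria3 and Gria1 rose 2.33-fold and 1.43-fold, and Nptx1, a secreted pentraxin that clusters AMPA receptors, 4.39-fold. The kainate receptor subunits Grik1 and Grik5 fell 3.23-fold and 2.06-fold. Grin2b was near background in both ages, at 4.7, 4.89 and 5.14 at P7 and at 4.82, 4.95 and 5.14 at P21, and did not pass the test (change 0.1, adjusted p = 0.337). The vesicular glutamate transporter Slc17a6, present in auditory nerve endings and many brainstem neurons, was at 10.85, 11.33 and 11.52 at P7 and 10.75, 11.24 and 11.6 at P21. Its change of -0.037 (SE 0.099) did not pass the test (adjusted p = 0.781).

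Inhibitory transmission had more rises than falls. Among 16 measured genes of GABA and glycine signalling, 9 rose and 2 were called lower, both weakly. Gabrg1 changed by -0.25 (adjusted p = 0.0265), a call lost with quantile normalisation (adjusted p = 0.0876) and without any 1 of 3 arrays, the second of 6 h at P7 (0.0894) and at P21 (0.076) and the last of 48 h at P21 (0.0501). Gabbr1 changed by -0.21 on its brightest probe set (adjusted p = 0.0475), a call lost in 16 of 22 cases with 1 array left out (adjusted p up to 0.101, without P21 replicate 1 of 6 h). Its dimmest probe set was called higher, with 0.85 (adjusted p = 0.000913), so no direction is given for the gene. Glra1, the adult glycine receptor subunit, was below background in all P7 arrays, at 3.04, 3.97 and 4.38, and at 4.39, 5.99 and 7.08 at P21. It was at least 1.78-fold higher (adjusted p = 3.03e-06), and its anchoring partner subunit Glrb rose 2.28-fold. Gad1, which makes GABA, went from 9.01, 9.21 and 9.8 to 10.3, 10.72 and 11.1, 2.59-fold higher (SE 0.10, adjusted p = 8.37e-10). No P7 array reached the P21 range. Slc32a1, which loads GABA and glycine into vesicles, rose 2.37-fold. The chloride exporter Slc12a5, whose appearance makes GABA and glycine inhibitory, rose 1.7-fold, and the chloride importer Slc12a2 rose 1.73-fold. Gabra2 was below background in most arrays of both ages (change -0.081, adjusted p = 0.828).

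Potassium and HCN channel genes were mostly higher at P21. Of 28 measured, 16 rose, 5 fell and the median was 0.59. Kcna1, the low-threshold channel that keeps bushy cells to 1 spike per input, was at 7.83, 8.55 and 9.09 at P7 and 10.41, 10.81 and 11.36 at P21, 5.2-fold higher (SE 0.13, adjusted p = 1.61e-11). The lowest P21 array exceeded the highest P7 array. Its auxiliary subunit Kcnab2 rose 4.12-fold, its relative Kcna2 2.03-fold, and Kcnc1, a high-threshold channel of fast-spiking neurons, 2.2-fold. Hcn2, a channel opened by hyperpolarisation, rose 4.05-fold and the G protein-gated channel Kcnj9 by a floored 2.27-fold (10 P7 arrays below background). Kcnip1, a partner of A-type channels, fell 3.39-fold on its brightest probe set, and by 0.13 with adjusted p = 0.518 on the dimmest of 3. Kcnmb4, a subunit of calcium-activated channels, fell 1.87-fold.

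Sodium and calcium channel genes also changed in both directions, subunit by subunit. Of 16 measured, 5 rose and 7 fell (median -0.071, or 0.12 over the members above background in at least 11 arrays). Scn8a, the channel of mature nodes of Ranvier, went from 7.97, 9.24 and 10.18 to 10.25, 10.46 and 10.58, 2.46-fold higher (SE 0.15, adjusted p = 7.57e-07). The ages did not overlap. Scn1a rose 2.03-fold, while Scn2a, the channel of young and unmyelinated axons, fell 1.78-fold. The accessory subunit Scn3b fell from 8.77, 9.4 and 10.21 to 5.74, 6.31 and 6.68, 8.9-fold (adjusted p = 6.96e-15). The calcium channel subunit Cacnb4 rose 2.2-fold and Cacnb2 by a floored 1.78-fold (8 P7 arrays below background), and the L-type channel Cacna1d fell 1.41-fold. The T-type channel Cacna1h was below background in all P21 arrays and at least 1.58-fold lower. Among 9 measured genes of nodes and initial segments 5 rose (55.6%, against 22.6% of all genes) and 2 fell (22.2%, against 30.8%). The largest change was the 2.24-fold rise of the spectrin Sptbn4.

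Calcium-binding proteins are commonly used to classify auditory neurons. Of 18 measured genes 8 rose (44.4%, against 22.6% of all genes) and 5 fell (27.8%, near the 30.8% of all genes). Calb1, abundant in cartwheel and Purkinje cells, was at 6.1, 6.9 and 8.31 at P7 and 9.18, 10.11 and 10.56 at P21, 8.19-fold higher (SE 0.19, adjusted p = 6.9e-11). Parvalbumin, Pvalb, went from 10.61, 11.44 and 11.99 to 12.32, 12.55 and 12.86, 2.46-fold (SE 0.074, adjusted p = 2.75e-11), and calretinin, Calb2, rose 2.37-fold. None of these 3 genes overlapped between the ages. S100b, of astrocytes and oligodendrocytes, rose 3.1-fold. Hippocalcin, Hpca, fell 2.11-fold and the annexin partner S100a10 1.88-fold.

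Genes of the dorsal division's own cell types gave a mixed record. In the list of Purkinje and cartwheel cell genes 9 of 12 measured rose and 1 fell (median 0.96), led by Gng13. Car8, an inactive carbonic anhydrase relative that restrains the inositol trisphosphate receptor, went from 6.59, 7.35 and 8.44 to 10.51, 10.78 and 11.23, 9.77-fold (SE 0.17). Pcp2 rose 4.84-fold with overlapping ages. In the granule cell list 6 rose and 8 fell of 15 measured. The mature members Gabra6, a GABA receptor subunit (6.12, 7.27 and 8.92 at P7, 9.37, 10.12 and 10.48 at P21, 6.83-fold), and Cbln3, a secreted synapse organiser (3.7-fold), rose. The developmental transcription factors Barhl1, Pax6 and Neurod1 fell 2.67-fold, 2.14-fold and 1.77-fold. These lists mark cerebellar cells as well as those of the dorsal nucleus, and whether any cerebellum was included in the dissection was not tested.

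Neuropeptide genes were more often lower. Of 17 measured among 36 listed, 8 fell and 2 rose. Somatostatin, Sst, was at 10.3, 10.97 and 11.18 at P7 and 7.32, 7.93 and 8.2 at P21, 8.23-fold lower (SE 0.1, adjusted p = 1.6e-14). Every P7 array was far above every P21 array. The somatostatin receptor Sstr2 fell by a floored 5.72-fold (8 P21 arrays below background) and Tac1, the substance P precursor, 2.89-fold. Penk, the enkephalin precursor, rose 2.05-fold, and Adcyap1, the PACAP precursor, rose 1.58-fold. With deafferented nuclei in place of the controls Adcyap1 changed by 0.012 (adjusted p = 0.951).

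**Figure D3:**
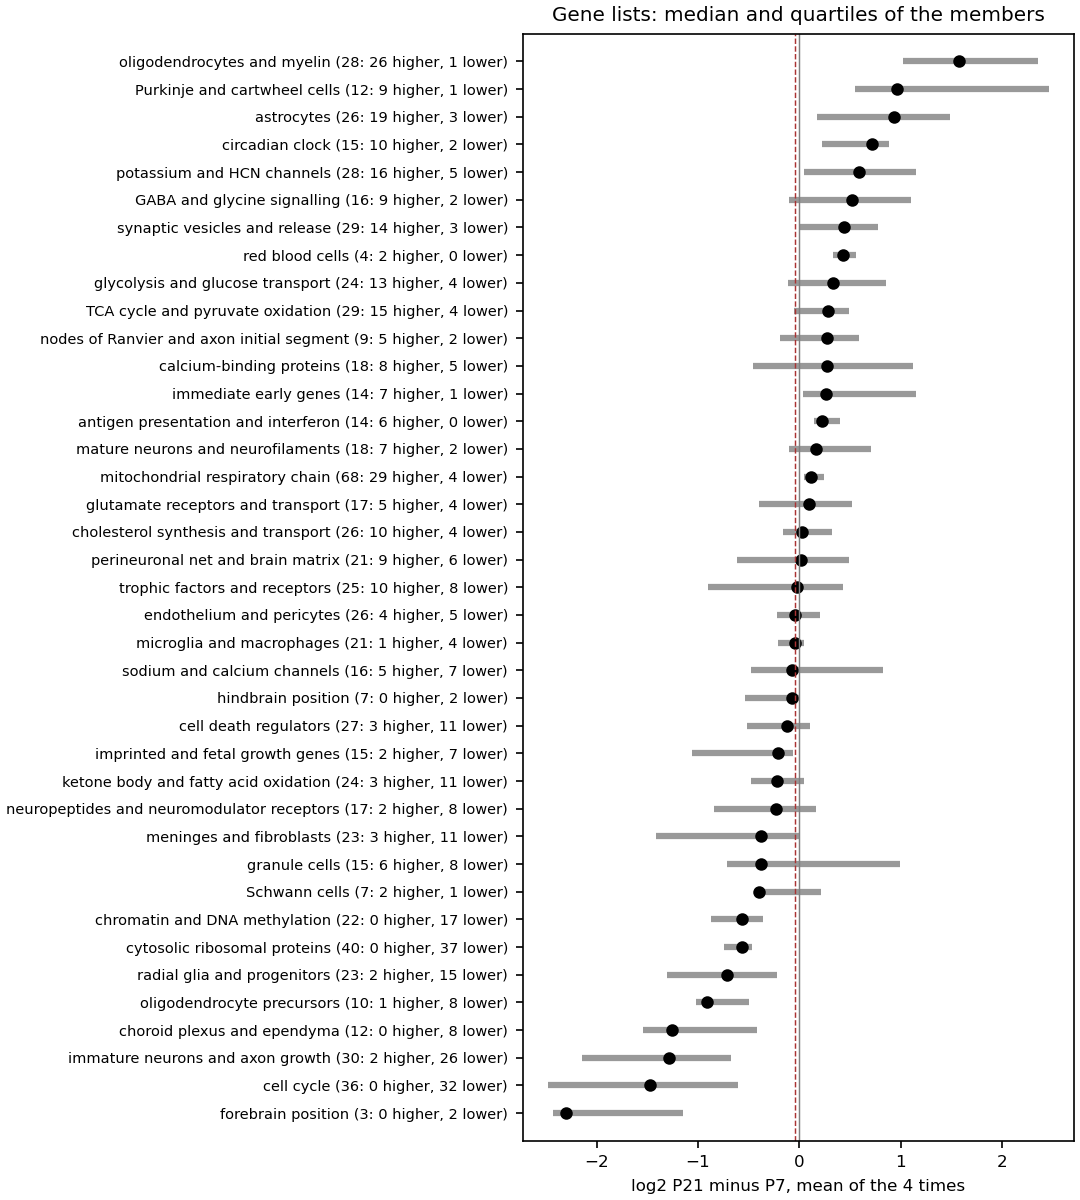
Change between the ages (x axis, log2 P21 minus P7, mean of the 4 times) for 39 gene lists (y axis), with the median of the measured members as a dot and their quartiles as a grey bar. Numbers in brackets are the members measured, then called higher and lower, and the dashed red line is the median of all genes, -0.04. Oligodendrocytes and myelin lie highest at 1.57 and, among lists of over 3 measured genes, the cell cycle lowest at -1.48.

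Myelin genes rose almost without exception. Of 28 measured oligodendrocyte and myelin genes, 26 were called higher and 22 at least 2-fold, with a median change of 1.57. Mobp, of compact myelin, went from 10.27, 10.97 and 12.37 to 13.46, 13.54 and 13.72, 5.58-fold higher (SE 0.14, adjusted p = 2.44e-11). The P21 arrays formed a tight group above all P7 arrays. Mal, a raft protein of myelin, rose 6.34-fold, and Gjb1, a connexin of oligodendrocytes, 6.67-fold. Mog, on the outer face of myelin, was at 7.95, 8.65 and 10.53 at P7 and 10.49, 11.12 and 11.53 at P21, 4.53-fold higher, with the highest P7 array just above the lowest P21 array. Hapln2, a link protein of the node of Ranvier, went from 4.59, 5.37 and 6.23 to 8.08, 8.96 and 9.26, 10.6-fold. Sirt2 was the member called lower (1.23-fold, adjusted p = 0.0207). That call was lost without the 24 h or the 48 h arrays and without either of 2 single 6 h arrays (P7 replicate 1, adjusted p = 0.0521, and P21 replicate 2, adjusted p = 0.0556).

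Mbp, encoding a major protein of compact myelin, was bright at both ages. Its brightest probe set had values of 13.52, 14.11 and 14.45 at P7 and 14.2, 14.5 and 14.83 at P21, near the brightest value of the arrays, and rose 1.32-fold (adjusted p = 0.000327). Of its 8 probe sets 7 were called higher, by up to 1.31 in log2, and the eighth, much dimmer, was called lower with a change of -0.59.

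Precursors of oligodendrocytes moved the other way. In that list 8 of 10 measured genes fell and 1 rose (median -0.91). Pdgfra, the growth factor receptor that defines these cells, was at 9.15, 9.38 and 9.6 at P7 and 8.03, 8.36 and 8.72 at P21, 1.94-fold lower (SE 0.087, adjusted p = 1.85e-08), and on its dimmer probe set changed by -0.44 (adjusted p = 0.108). The ages did not overlap on the brighter one. Cspg5, a proteoglycan also made by neurons, fell 3.41-fold and the transcription factor Nkx2-2 2.56-fold. C1ql1, also expressed by neurons of the auditory brainstem and inferior olive, rose 2.35-fold.

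The level of the myelin list was not steady within P7. Its mean log2 value over the members was 9.05, 8.95, 9.35 and 9.89 at 6, 12, 24 and 48 h in P7 and 10.9, 10.91, 10.87 and 10.96 in P21. The P7 arrays of 48 h differed among themselves, at 10.1, 10.28 and, in the last of them, 9.29, while the P21 arrays covered 10.84 to 11.12. Over the same times the median change of the list was 2.0, 1.88, 1.6 and 0.99. No member passed the test of late against early times.

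**Figure D4:**
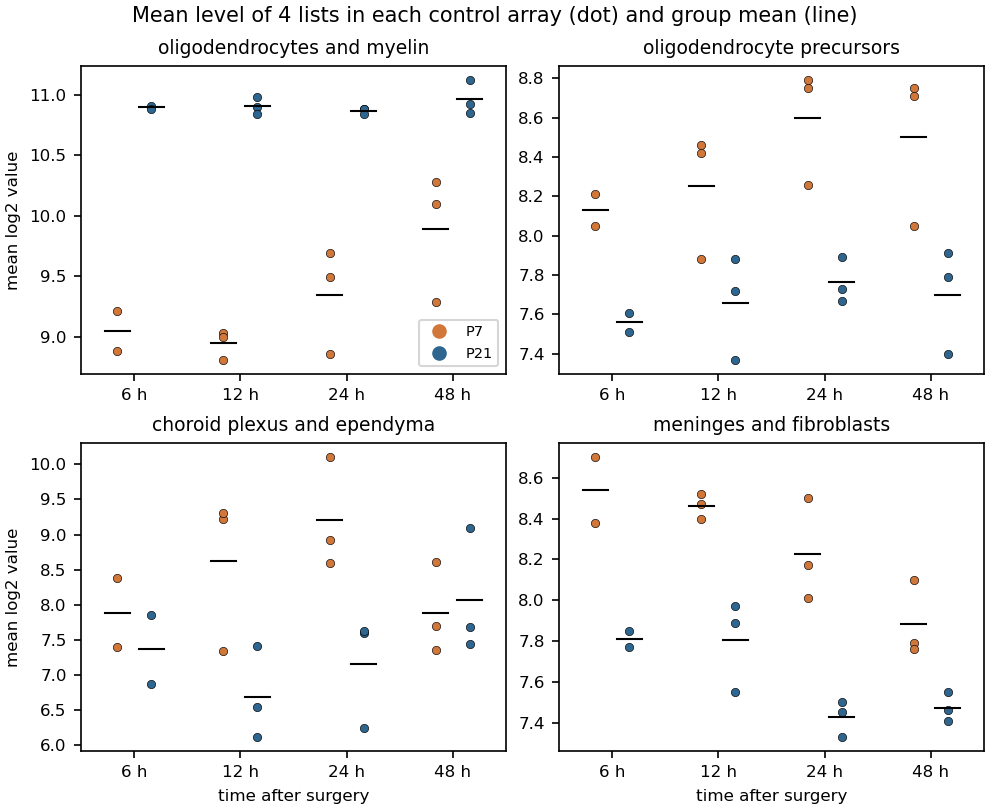
Mean log2 value over the measured members (y axis) of 4 gene lists in each control array (dots), by time after surgery (x axis), P7 in orange and P21 in blue, with group means as black lines. The y axes differ and do not start at 0. Myelin stays within 10.84 to 11.12 at P21 and is highest at 48 h at P7, while choroid plexus genes scatter widely within each age, over 7.34 to 10.1 at P7 and 6.12 to 9.09 at P21.

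Astrocyte genes were mostly higher at P21, and radial glial genes mostly lower. Of 26 measured astrocyte genes 19 rose and 3 fell (median 0.94). Ntsr2, a neurotensin receptor found on astrocytes, went from 8.37, 8.89 and 10.05 to 10.81, 11.2 and 11.52, 4.61-fold higher (SE 0.12, adjusted p = 1.66e-11). The gap connexins Gjb6 and Gja1 rose 4.48-fold and 1.52-fold, the glutamate transporter Slc1a2 by a floored 3.49-fold (5 P7 arrays below background) and the metallothionein Mt1 3.21-fold. The other glial glutamate transporter, Slc1a3, fell 1.47-fold and the folate enzyme Aldh1l1 1.55-fold. The intermediate filament Gfap was at 8.45, 10.1 and 11.35 at P7 and 8.58, 10.12 and 11.14 at P21, with wide and overlapping spread, and its change of 0.14 (SE 0.27) did not pass the test (adjusted p = 0.684). The water channel Aqp4 did not pass it either, with a change of -0.094 (SE 0.12, adjusted p = 0.549).

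Among 23 measured genes of radial glia and progenitors 15 fell and 2 rose (median -0.71). The fatty acid-binding protein Fabp7 was at 13.11, 13.46 and 13.82 at P7 and 9.85, 10.75 and 11.22 at P21, 6.93-fold lower (SE 0.1, adjusted p = 3.55e-14). The ages were widely separated. Ccnd2, a cyclin of neural progenitors, fell 5.01-fold on the probe set shown and was called lower on all 6. The filament gene Vim fell 2.47-fold and the Notch target Hes5 by a floored 2.75-fold (7 P21 arrays below background), while Id2, an inhibitor of differentiation factors, rose 1.73-fold.

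Few microglial genes changed. Of 21 measured, 16 were not called, 4 fell and 1 rose (median -0.042), below the background share in either direction. The list mean was 6.86 to 7.24 in P7 and 6.69 to 7.13 in P21. The fractalkine receptor Cx3cr1 was at 7.16, 7.41 and 7.72 at P7 and 7.12, 7.48 and 7.72 at P21 (change -0.023, SE 0.097, adjusted p = 0.861). The growth factor receptor Csf1r changed by 0.079 (adjusted p = 0.569). Ctss, a lysosomal protease, rose 1.63-fold and Cyba, a subunit of the phagocyte oxidase, fell 1.87-fold. Cd68 fell by a floored 1.41-fold (7 P21 arrays below background) and Tyrobp 1.37-fold. Tyrobp did not pass without the 8 arrays that stand apart (adjusted p = 0.0954), and Cd68 did not pass without the first P7 array of 6 h (adjusted p = 0.0607), without 12 h or without 24 h.

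Vessels, meninges and choroid plexus accompany the nucleus in a dissection and were recorded for that reason. Endothelial and pericyte genes rose in 4 and fell in 5 of 26 (15.4% and 19.2%, below the shares of all genes in both directions). The barrier transporters Abcb1a, Slco1a4 and the glucose carrier Slc2a1 rose 3.82-fold, 3.81-fold and 2.69-fold, while the growth-phase receptors Kdr and Tie1 were lower, Kdr 1.91-fold and Tie1, below background in all P21 arrays, at least 1.12-fold. Meningeal and fibroblast genes fell in 11 and rose in 3 of 23. The collagen gene Col3a1 went from 10.29, 10.87 and 11.5 to 7.41, 8.27 and 8.75, 6.31-fold lower (adjusted p = 2.93e-14), with no overlap. Postn, a matrix protein of growing tissue, fell by a floored 5.78-fold (6 P21 arrays below background).

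Choroid plexus genes were lower at P21 in 8 of 12 measured genes, with large scatter inside each age. The list mean ranged over 7.34 to 10.1 in the P7 arrays and 6.12 to 9.09 in the P21 arrays. Its group means were 7.89, 8.62, 9.21 and 7.89 at 6, 12, 24 and 48 h in P7 and 7.36, 6.69, 7.16 and 8.07 in P21. The age difference was thus large at 12 and 24 h and near 0 at 48 h. Aqp1, a water channel, was at 5.97, 8.25 and 10.15 at P7 and 3.78, 5.75 and 8.67 at P21, overlapping, and fell 5.76-fold (SE 0.51, adjusted p = 0.000336). Ttr, the thyroxine carrier that choroid plexus secretes, was near the brightest value of the arrays at both ages, 14.19, 14.67 and 14.99 at P7 and 13.65, 14.44 and 14.94 at P21. Its change of -0.29 on the brightest probe set had an adjusted p of 0.0514, and with the replicate number as a block it was called (-0.29, adjusted p = 0.038). Ttr was also called without any 1 of 5 arrays, P7 replicate 2 of 48 h, P21 replicates 1 and 3 of 12 h and P21 replicate 3 of 24 h and of 48 h (adjusted p = 0.0141 to 0.0487). The part of attached choroid plexus in other age differences was not tested.

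Matrix genes changed in both directions. In the list of perineuronal net and brain matrix 9 rose (42.9%, against 22.6% of all genes) and 6 fell (28.6%, near the 30.8% of all genes) of 21. Tenascin-C, Tnc, was at 7.56, 8.65 and 9.25 at P7 and 4.88, 5.0 and 5.47 at P21, close to background, and fell 11.1-fold (SE 0.13, adjusted p = 7.08e-14). The proteoglycans Ncan and Vcan fell 5.47-fold and 2.42-fold and the secreted guidance protein Reln 2.09-fold. Hapln2 rose as given above, the protease inhibitor Timp4 2.19-fold and the collagen-binding Sparc 1.76-fold. Hapln1, near background in both ages, changed by 0.021 (adjusted p = 0.916).

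Trophic factor genes included strong changes either way. Of 25 measured, 10 were higher (40%, against 22.6% of all genes) and 8 lower (32%, near the 30.8% of all genes), with a median of -0.026. Fgf1, a growth factor without a classical secretion signal, went from 7.64, 8.48 and 9.29 to 10.37, 10.96 and 11.07, 5.68-fold higher (SE 0.14, adjusted p = 1.61e-11). Igf1 went from 7.98, 8.4 and 8.7 to 5.35, 6.27 and 6.61, 4.61-fold lower (adjusted p = 3.17e-12), and on its other probe set by -0.42 (adjusted p = 0.0542). On the brighter probe set neither gene overlapped between ages. The insulin-like growth factor binding proteins moved apart, Igfbp6 up 4.15-fold and Igfbp2 down 2.93-fold. The neurotrophin receptor Ngfr fell 2.22-fold and Fgf13, an intracellular regulator of sodium channels, 3.03-fold.

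Regulators of cell death were more often lower than higher at P21. Removal of the cochlea kills many neurons of the young cochlear nucleus and few of the older one, which gives this list its place here. Of 27 measured genes 11 fell (40.7%, against 30.8% of all genes) and 3 rose (11.1%, against 22.6%). The median change was -0.12, or -0.002 on the dimmest probe sets, against -0.04 for all genes. Bid, a pro-apoptotic BH3 protein, was at 5.86, 6.68 and 7.15 at P7 and 4.0, 4.62 and 5.08 at P21, a floored 3.1-fold lower with 10 P21 arrays below background (log2 change -2.04, SE 0.13, adjusted p = 1.47e-10). The P21 arrays were at or near background, below every P7 array. Apaf1, the scaffold that activates caspase-9, went from 5.64, 6.17 and 7.21 to 4.86, 5.28 and 5.43 and fell 2.03-fold (adjusted p = 4.96e-07), without overlap. Bak1 and Bcl2l11, which act on the mitochondrial membrane, fell 1.73-fold and 1.65-fold, and Bcl2l11 changed by -0.21 on its dimmest probe set (adjusted p = 0.122). The 3 that rose were the protective family members Bcl2l2 (1.96-fold) and Bcl2l1 (1.61-fold) and the nuclease inhibitor Dffa (1.83-fold). The protective Bcl2 itself fell 1.35-fold (adjusted p = 0.0201), a call lost without the 6 h arrays (adjusted p = 0.0999) or without the second of them at either age (adjusted p = 0.068 without that of P7 and 0.0689 without that of P21).

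Cell cycle genes fell in 32 of 36 measured, and none rose. The median change was -1.48, or -0.77 with values below background set to log2 5, since many members were at background at P21. Top2a, a topoisomerase of dividing cells, was at 6.4, 6.76 and 7.59 at P7 and 2.39, 2.52 and 2.92 at P21. Mki67, the proliferation antigen, was at 5.95, 6.9 and 7.57 and 2.43, 2.91 and 3.28, and the mitotic kinase Cdk1 at 6.84, 7.8 and 8.46 and 3.62, 3.81 and 4.9. All P21 arrays of these 3 genes were below background, so that they were at least 3.55-fold, 3.52-fold and 6.07-fold lower (adjusted p = 2.56e-15, 4.74e-13 and 1.56e-11). Rrm2, which makes deoxyribonucleotides, fell by a floored 9.43-fold (7 P21 arrays below background).

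The promoters of these genes are shown because the list moved together. Many mitotic genes are known to carry CCAAT boxes and a CHR element close to the start of transcription. RefSeq promoters of build GRCm38.p6 matched 30 of the 36 measured genes, and the 250 bases before the start were searched on both strands for the CCAAT box and for 2 CHR words, one spelled TTTGAA and the other, a palindrome, spelled TTCGAA. Motifs that overlapped were each counted. CCAAT was present for 23 of the 30 genes (76.7%), against 37.5% of the 27025 genes with a promoter in the table and 40.6% of the 7074 genes measured here that matched it. A CHR word was present for 13 (43.3%), against 19.6% and 14.6%. Both were present for 13 (43.3%), against 7% and 5.3%. The E2F letters TTTCCCGC or TTTGGCGC occurred for 3 genes (10%), against 1.51% and 2.98%. A match describes letters and not a bound site. The 3 promoters below are those of the largest falls with both motifs and a single promoter in the table, on the strand of the gene from 5′ to 3′, ending with the base before the start. Capitals mark the CCAAT box and the CHR words, read on either strand.
Top2a, chr11:99024190-99024439, minus strand: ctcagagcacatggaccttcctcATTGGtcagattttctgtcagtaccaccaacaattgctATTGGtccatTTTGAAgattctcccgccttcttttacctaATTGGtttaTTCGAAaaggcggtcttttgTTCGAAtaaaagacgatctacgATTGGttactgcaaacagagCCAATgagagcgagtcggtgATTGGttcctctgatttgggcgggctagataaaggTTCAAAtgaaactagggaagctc
Mki67, chr7:135716380-135716629, minus strand: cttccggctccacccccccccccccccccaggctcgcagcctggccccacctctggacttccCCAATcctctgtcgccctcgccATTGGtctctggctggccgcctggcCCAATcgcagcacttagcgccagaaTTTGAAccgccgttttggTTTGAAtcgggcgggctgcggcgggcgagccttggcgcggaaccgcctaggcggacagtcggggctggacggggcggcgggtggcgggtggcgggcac
Cdk1, chr10:69352913-69353162, minus strand: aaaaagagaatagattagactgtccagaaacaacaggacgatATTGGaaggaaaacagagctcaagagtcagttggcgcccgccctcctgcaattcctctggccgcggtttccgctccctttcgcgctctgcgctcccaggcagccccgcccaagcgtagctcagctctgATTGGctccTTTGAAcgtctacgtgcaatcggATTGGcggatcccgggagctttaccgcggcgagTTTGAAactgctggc

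In the Top2a promoter 6 copies of CCAAT and 4 CHR words were found, and in Mki67 and Cdk1 3 and 2 each. Other cell cycle genes with large falls differed in this. Rrm2 (log2 change -3.737) had a single CCAAT and no CHR word, and Cks2 (-2.763) and Mcm6 (-2.412) had 2 CCAAT each and no CHR word. Birc5 (-2.705) had neither motif. Ube2c (-2.917), Cks1b (-2.79) and Hmgb2 (-2.383) had both.

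Chromatin genes followed the same direction with smaller changes. Of 22 measured 17 fell and none rose (median -0.57). The chromosomal protein Hmgb3 went from 9.78, 10.22 and 10.67 to 7.8, 8.32 and 8.81, 3.79-fold lower (adjusted p = 3.55e-12), without overlap, and the histone methyltransferase Ezh2 fell 2.9-fold. Of 15 measured imprinted and fetal growth genes 7 fell and 2 rose. Igf2 was at 10.65, 11.4 and 11.88 at P7 and 9.7, 10.13 and 10.63 at P21, 2.12-fold lower (adjusted p = 1.12e-07), and meninges and choroid plexus are known sources of it. The cell cycle inhibitor Cdkn1c fell 2.76-fold and Mest 2.26-fold. Impact, a regulator of translation, rose 2.87-fold, and Dlk1 did not pass the test (change -0.2, adjusted p = 0.0911).

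Ribosomal protein genes fell together. Of 40 measured 37 were called lower and none higher, against 30.8% and 22.6% of all genes, with a median change of -0.57 and a narrow quartile range of -0.75 to -0.47. Rplp0, of the ribosomal stalk, went from 13.27, 13.45 and 13.69 to 11.99, 12.31 and 12.52, 2.18-fold lower (SE 0.052, adjusted p = 1.25e-12). Its lowest P7 array was well above its highest P21 array. Rpsa and Rps18, of the small subunit, both fell 2.28-fold. By time, from 6 to 48 h, the median change of the list was -0.62, -0.58, -0.7 and -0.49. Probe sets of ribosomal proteins can also read processed pseudogenes, of which these genes have many.

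Respiratory chain and TCA cycle genes were more often called higher than lower. Of 68 measured genes of the mitochondrial respiratory chain 29 rose, 4 fell and 35 were not called. None changed by as much as 2-fold, and the median change was 0.12, from 0.28 at 6 h to -0.051 at 24 h and 0.082 at 48 h. Sdha, the catalytic subunit of succinate dehydrogenase, was at 10.42, 10.76 and 10.98 at P7 and 11.32, 11.46 and 11.71 at P21, 1.63-fold higher (SE 0.064, adjusted p = 1.86e-08), and was the 1 member without overlap. The complex I subunits Ndufs7 and Ndufv1 rose 1.46-fold and 1.42-fold. Of 29 measured genes of the TCA cycle and pyruvate oxidation 15 rose, 4 fell and 10 were not called (median 0.29). Got1, a transaminase of the malate-aspartate shuttle, went from 10.04, 10.4 and 11.24 to 11.8, 12.08 and 12.31, 2.93-fold higher (adjusted p = 2.28e-10), with no overlap. Ogdh and the pyruvate dehydrogenase kinase Pdk2 rose 1.58-fold and 2.31-fold. Idh2 fell 1.91-fold and Cs, citrate synthase, 1.19-fold, with a change of -0.11 (adjusted p = 0.554) on the dimmest probe set of Cs.

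Glycolytic genes were mostly higher, with opposite changes between isoforms. Of 24 measured 13 rose and 4 fell (median 0.33). The lactate dehydrogenase subunit Ldha was at 10.73, 11.12 and 11.33 at P7 and 9.57, 9.78 and 10 at P21, 2.36-fold lower (SE 0.067, adjusted p = 1.31e-11). Its partner Ldhb was at 12.51, 12.79 and 13.2 and 13.36, 13.59 and 13.8, 1.72-fold higher (SE 0.063, adjusted p = 3.6e-09). Neither subunit overlapped between the ages. The glycogen phosphorylase Pygm rose 5.5-fold and its isoform Pygb fell 1.26-fold. The aldolase Aldoc of astrocytes rose 2.41-fold and the enolase Eno2 of neurons 2.57-fold. The monocarboxylate carrier Slc16a1, by which the suckling brain takes up ketone bodies, fell 1.41-fold, with an adjusted p of 0.0551 without the 8 arrays that stand apart.

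Ketone body and fatty acid oxidation genes were more often lower, 11 against 3 higher of 24 (median -0.22). Acat1, which splits acetoacetyl-CoA, went from 10.64, 10.83 and 11.37 to 9.81, 9.98 and 10.21, 1.84-fold lower (SE 0.080, adjusted p = 1.8e-08), without overlap. Bdh1, which oxidises hydroxybutyrate, fell 1.58-fold, and the isomerase Eci2 of fatty acid oxidation 1.75-fold. Hadhb, of mitochondrial fatty acid oxidation, rose 2.05-fold. In the cholesterol list 10 rose and 4 fell of 26 (median 0.025). Cyp46a1, by which neurons dispose of cholesterol, rose 1.54-fold and Msmo1, of its synthesis, 1.62-fold. The synthesis genes Mvd and Mvk fell 1.7-fold and 1.39-fold, and the exporter Abca1 2.38-fold, with -0.36 (adjusted p = 0.22) on the dimmest of its 3 probe sets.

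Genes that respond to activity and to time of day were more often higher than lower at P21. Of 14 measured immediate early genes 7 rose and 1 fell. Fos was at 6.84, 7.85 and 8.56 at P7 and 8.81, 9.5 and 10.16 at P21, 3.72-fold higher (SE 0.16, adjusted p = 4.85e-09). No P21 array fell within the P7 range. Arc, which follows synaptic activity, rose 2.89-fold and the phosphatase Dusp1 2.87-fold. Of 15 clock genes 10 rose and 2 fell (median 0.72). Bhlhe40, a repressor within the clock, went from 4.98, 6.27 and 7.39 to 7.8, 8.31 and 8.78, 3.9-fold higher, with no overlap. Dbp and Nr1d2, of the clock's output and inner loop, rose 3.09-fold and 2.23-fold. The clock times of surgery and dissection are not given in the sources used here, and their part was not tested. Of 14 genes of antigen presentation and interferon 6 rose, with Ifit3 at 3.93, 4.88 and 5.37 at P7 and 5.45, 6.35 and 7.88 at P21 (a floored 2.67-fold with 7 P7 arrays below background, adjusted p = 6.21e-06).

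Lists for position and for other cells were read as a description of the tissue, and what the dissections included was not tested. Hindbrain position genes were near background, with list means of 5.21 to 5.78 at P7 and 5.07 to 5.31 at P21. Hoxa2 was at 5.3, 5.95 and 6.91 at P7 and 4.51, 4.95 and 5.49 at P21 and fell by a floored 1.91-fold (6 P21 arrays below background). Of 16 forebrain position genes 3 were measured and 2 fell. Their list mean was 5.915 to 6.945 at P7 and 4.571 to 5.066 at P21. A gene was measured if above log2 5 in at least 2 arrays, which P7 arrays alone can meet. Levels of different probe sets do not give relative amounts, so the forebrain and hindbrain lists are not compared. Neurod6 was at 6.77, 7.44 and 7.92 at P7 and 4.49, 4.9 and 5.3 at P21, a floored 5.5-fold lower with 6 P21 arrays below background. Bcl11b was below background in all P21 arrays and at least 3.04-fold lower. Of 7 Schwann cell genes 2 rose (28.6%, against 22.6% of all genes) and 1 fell (14.3%, against 30.8%), the latter being Ngfr. Of 4 red blood cell genes 2 rose, and the list mean was 6.43 to 6.99 at P7 and 6.51 to 7.88 at P21.

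Taken time by time, the difference between the ages was counted on fewer arrays. At 6 h, 1305 probe sets (8.71%) were higher and 1651 (11%) lower at P21. The counts were 1894 (12.6%) and 2479 (16.5%) at 12 h, 1772 (11.8%) and 2865 (19.1%) at 24 h, and 1105 (7.37%) and 1051 (7.01%) at 48 h. By gene, 482 were called higher and 472 lower at all 4 times. Ddc, which makes dopamine and serotonin, and S100a16 were called in opposite directions at different times and are named after their values were seen. Ddc changed by 0.64 at 12 h and -0.74 at 48 h.

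In genes chosen by their change at 12 h or at 48 h, the median change was smaller in size at 48 h than before. Tested by probe set, the age difference at 48 h minus that at 6 h was called in 1. The count called higher at 48 h was 1105, but 683 without P7 replicate 3 and 624 without P21 replicate 1 of that time. The 614 genes called at least 2-fold lower at 12 h had median changes of -1.22 at 6 h, -1.31 at 24 h and -0.80 at 48 h. The 466 called at least 2-fold higher at 12 h had 1.43, 1.19 and 1.00. These genes were chosen at 12 h, and the values at the other times come from other arrays. Genes chosen at 48 h, 276 higher and 240 lower, had medians of 1.32 and -1.37 there and 1.66 and -1.78 at 6 h. The immature neuron list moved from 10.46, 10.47, 10.15 and 9.98 at 6, 12, 24 and 48 h in P7 and stayed at 8.74, 8.76, 8.68 and 8.75 in P21.

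The test of the difference between late (24 and 48 h) and early (6 and 12 h) times called 4 probe sets whose age difference became more positive (0.0267%) and 4 more negative (0.0267%). With the replicate number as a block this test called 13 probe sets in all. A test over all 4 times called 2 (0.0133%). Among the 8 probe sets called in the late against early test, those that stand for their gene were of Hr, Pvalb, Car4, Scn3b and S100a8. The other 3 were dimmer probe sets, of the polysialyltransferase St8sia2 (late minus early 1.98, adjusted p = 0.00465), Prmt2 (0.91, adjusted p = 0.042) and Dbp (-1.30, adjusted p = 0.046), whose brightest probe sets gave 1.12, 0.74 and -0.76 and did not pass (adjusted p = 0.206, 0.26 and 0.428). These 3 are named after their values were seen. Hr, the hairless corepressor, a known target of thyroid hormone in the developing brain, had P7 means of 5.07, 4.67, 5.9 and 5.9 at 6, 12, 24 and 48 h and P21 means of 8.26, 7.66, 7.42 and 6.5. Its age difference shrank from 3.2 at 6 h to 0.61 at 48 h, a late minus early value of -2.03 (SE 0.36, adjusted p = 0.042). In Pvalb the P7 means went from 10.71 at 6 h to 11.72 at 48 h and the P21 means stayed within 12.51 to 12.65 (-0.88, SE 0.15, adjusted p = 0.042). Car4, a membrane-bound carbonic anhydrase, had P7 means of 7.06, 7.42, 7.91 and 8.44 and P21 means of 8.08, 8.47, 8.2 and 8.22, so that P7 ended slightly above P21 (-1.0, adjusted p = 0.042). Scn3b went at P7 from 9.79 to 8.83 while the P21 means stayed within 6.15 to 6.44 (1.1, adjusted p = 0.042, or 0.083 with the replicate number as a block). S100a8, a calcium-binding protein of neutrophils, was below background at every P7 time and at P21 at 6 and 12 h. At P21 it stood at 5.51 at 24 h and 5.74 at 48 h (1.88, adjusted p = 0.0013).

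**Figure D5:**
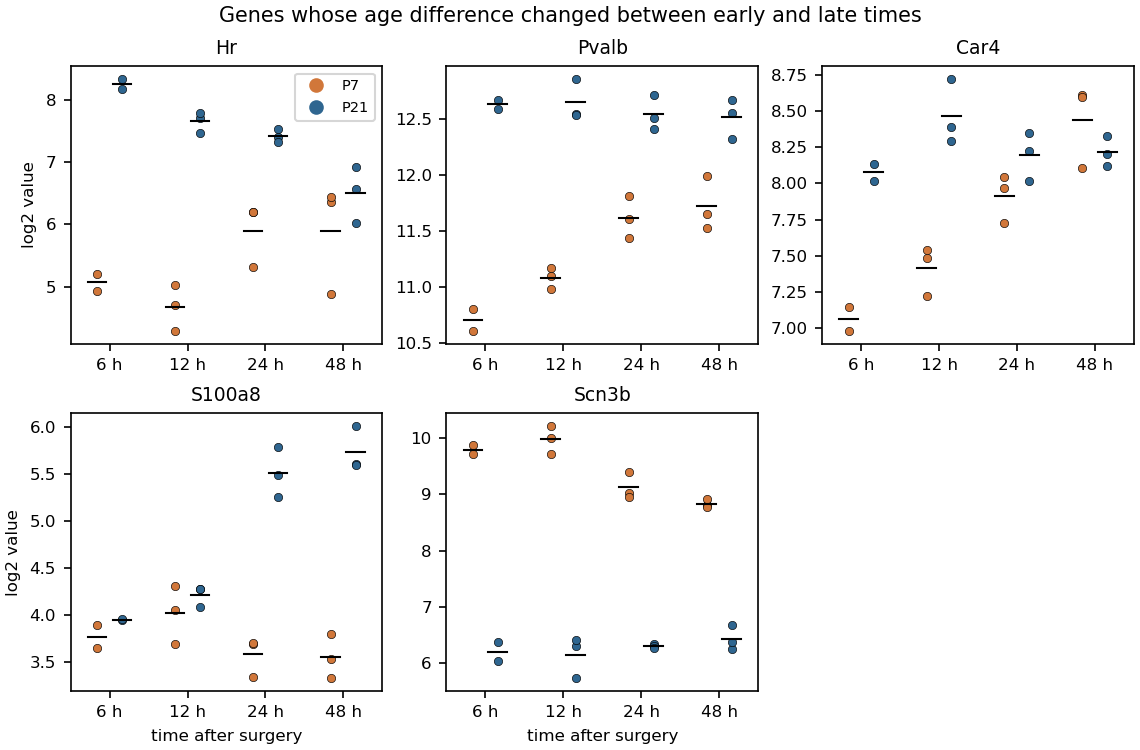
Log2 value (y axis) of the 5 genes whose age difference changed between early and late times, in each control array (dots), by time after surgery (x axis), P7 in orange and P21 in blue, with group means as black lines. The y axes differ and do not start at 0. In Hr, Pvalb and Car4 the ages approach each other, in Scn3b P7 comes down toward P21, and S100a8 is above 5 in the P21 arrays of 24 and 48 h only.

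These calls rested on few arrays. Leaving out 1 array at a time, S100a8 was called in 22 of 22 cases, Pvalb in 8, Scn3b in 5, Car4 in 3 and Hr in 2. S100a8 was above background in so few arrays that with values below log2 5 raised to it the difference was 0.63 and did not pass the test. The dimmer probe sets of Hr, Car4 and Scn3b gave -0.089, -0.84 and 0.66 and did not pass (adjusted p = 1, 0.426 and 0.979).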

How the data were processed

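RNA of pooled cochlear nuclei was measured on Affymetrix mouse arrays. The deposited values are log2 signals. Per the submitters' processing notes the authors used GCRMA, with its version not given in the sources here. GCRMA corrects background by probe sequence and makes the distributions of arrays alike, so a change shared by all genes would not be seen. They were used as deposited. Of 22626 probe sets, 20380 had 1 gene symbol in the platform annotation, 691 had several and 1555 are unnamed here.

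A limma fit (version 3.58.1, R 4.3.3) with 8 groups of age and time and a variance trend was made on the 22 control arrays and 14988 probe sets (14 residual and 5.304 prior degrees of freedom), and tested on simulated data. P-values were adjusted by Benjamini-Hochberg over all 14988. Nothing in the labels ties pools of 1 age to those of the other. Deviations of same-numbered arrays from their group means correlated between the ages at 0.112 to 0.518 in the 3 pairs of 12 h. In those of 48 h they correlated at 0.242 to 0.665, so that every pair of both times passed the limit of 0.1 set for pairing. The highest value at each of these times was that of replicate 3, which stands apart on the second component in both ages. Deviations within a group cancel out, so these arrays alone can also raise the values of the other pairs. Arrays of unlike number were not compared, so whether the numbers pair the arrays was not tested. At 6 h the deviations correlated at -0.11, where groups of 2 arrays give both pairs the same value. At 24 h they correlated at -0.0465 to 0.251. Neither time passed the limit in every pair. The fit without the replicate number was kept, and the fit with it as a block is given where a call changed. The p-values measure the spread between pools within a group, and the number of pools limits the precision. At 12 and 48 h this spread includes deviations shared by same-numbered arrays of both ages, which the fit without the block does not remove.

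The 39 gene lists hold 1135 genes, of which 798 were measured. Members and lists were chosen with earlier results of these data known. Genes are named by rule: the 15 largest rises and falls, ranked with the mean of each age and time raised to at least log2 5, among called genes with the same sign at all 4 times, up to 4 members per list and direction, the 5 largest late against early changes per sign, and a fixed set of classical markers. A list is described by counts and its median change. An at least N-fold value sets the brighter mean against log2 5. Arrays left out, time points left out, other filters, scalings and probe sets were tried as alternatives. The arrays from the side of the removed cochlea were used as an alternative only.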

Additional observations from a re-analysis of the deposited data

Results flagged for a closer look

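In 5 genes the difference between the ages changed between the early (6 and 12 h) and late (24 and 48 h) control arrays, by a test of that change itself across 14988 probe sets. The late minus early value was -2.03 for Hr, -0.88 for Pvalb and -1.002 for Car4, in which the ages came closer. It was 1.10 for Scn3b, whose age difference also became smaller, and 1.88 for S100a8, which was above background in the late P21 arrays alone. Over the alternatives tried, the value ranged from -2.48 to -1.57 for Hr, from -1.06 to -0.51 for Pvalb, from -1.26 to -0.75 for Car4, from 0.89 to 1.38 for Scn3b and from 0.63 to 2.003 for S100a8. No direction changed. Of 38 alternatives, Pvalb was called in 15, and Hr, Car4 and Scn3b were each called in 10; S100a8 was called in 32 of 37. P7 replicate 3 at 48 h differed from its companions in Hr, at 4.88 against 6.36 and 6.45.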

How the results depend on the processing

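Of 273 named genes 262 were called, and 215 of these kept sign and call under all alternatives. With a test against 2-fold in place of a 2-fold limit, 263 probe sets were higher and 283 lower. At 48 h, without the 6 h arrays and replicate 3 of 12 and 48 h (chosen after seeing the data), 599 were higher and 621 lower, and with the deafferented nuclei in place of the controls 1580 were lower. The count of 8 for late against early times became 143 with deafferented nuclei, 2 without the variance trend, 2 without a filter, 1 with values below background set to log2 5, 47 without replicate 3 of 12 and 48 h, 1 without 6 h, 0 without 12 h, 3 without 24 h, 0 without 48 h, 0 without both 6 h and replicate 3 of 12 and 48 h, and 1 for 48 h minus 6 h. Leaving out 1 array at a time gave 696 to 1486 higher and 847 to 1855 lower at 6 h, where removing any of the 4 arrays of 6 h moved a count by over 1.5 times (718, 698 and 696 higher without P7 replicate 2 and P21 replicates 1 and 2, and 1004, 925, 899 and 847 lower without P7 replicates 1 and 2 and P21 replicates 1 and 2). At 48 h it gave 624 to 1283 higher, with 683 without P7 replicate 3 and 624 without P21 replicate 1, and 781 to 1222 lower. For late against early it gave 2 to 46, the highest without P7 replicate 3 of 48 h and the next, 16, without P7 replicate 1 of 24 h. For the mean of the times it gave 3029 to 3387 higher and 3916 to 4385 lower.

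With the replicate block, 3741 probe sets were higher and 4681 lower over the mean of the times, and 13 changed between late and early times. The counts were 2342 and 2969 at 12 h and 1486 and 1455 at 48 h, the times at which every same-numbered pair passed the limit of 0.1. The block changed no other call of a named gene than those of Ttr and, between late and early times, Scn3b. On the dimmest probe set a change opposite to that of the brightest was called for Gabbr1 (0.852), Mbp (-0.594), Nes (-0.591) and Septin8 (-0.801). It was opposite in sign but not called for Acsl4 (0.205, adjusted p = 0.14), Sdhd (0.073, adjusted p = 0.723) and Slc14a1 (0.166, adjusted p = 0.411). With deafferented nuclei the change was 0.521 for Cd68 (adjusted p = 0.0823), 0.094 for Fcer1g (adjusted p = 0.644) and 0.135 for Tyrobp (adjusted p = 0.355). These were opposite in sign to the controls but not called. The cause was not tested. In 20 of the 39 lists the median moved beyond the spread between arrays under some alternative, among them sodium and calcium channels (0.122 with the filter in at least 11 arrays), trophic factors (0.151 on the dimmest probe sets) and microglia (0.159 with deafferented nuclei), whose medians turned from below 0 to above. Some other medians within 0.1 of 0 also changed sign by smaller amounts. Levels under log2 5 are bounds only.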
